A study of Mus musculus with 11 samples.

Results

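The genes described here are 10 transcription factors that pattern the lung mesenchyme, *Tbx2*, *Tbx3*, *Tbx4*, *Tbx5*, *Foxf1*, *Foxf2*, *Tcf21*, *Meox2*, *Osr1* and *Hlx*, chosen by symbol from the 24062 genes counted by RNA-seq in cultured mouse fetal lung mesenchymal cells. Sp3 is a zinc finger transcription factor that binds GC-rich promoter elements. The cells came from E15 lungs of embryos from matings of *Sp3+/-* mice, which carry a null allele of *Sp3* in every cell rather than in the mesenchyme alone. They were dissociated with collagenase, taken as the cells that adhered rapidly to plastic, and passaged, so the values describe cultured primary cells. The comparison is between 4 WT (*Sp3+/+*), 4 *Sp3+/-* and 3 *Sp3-/-* libraries, and the labels do not say which libraries share a litter or whether each is a separate embryo. P-values therefore measure the spread between these libraries, part of which may be technical.

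The mesenchyme of the developing lung instructs the epithelium through secreted factors such as FGF10, and the genes studied here encode part of its regulatory machinery. TBX4 and TBX5 act together in early lung growth and branching, and TBX2 and TBX3 are repressors that keep the mesenchyme dividing by holding down cell cycle inhibitors. FOXF1 and FOXF2 are forkhead factors induced by epithelial hedgehog ligands. TCF21 is a basic helix-loop-helix factor of stromal progenitors, OSR1 is an odd-skipped zinc finger protein of early lung and foregut mesenchyme, and HLX and MEOX2 are homeobox factors of visceral and somitic mesoderm.

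Reads counted on genes ranged from 9849111 to 59297495 per library, and the smallest library was *Sp3-/-* replicate 3. As a check of the labels, *Sp3* stood at 6.38 ± 0.35 log2 CPM (SD, n = 4) in WT, at 5.91 ± 0.19 (n = 4) in *Sp3+/-* and at 4.10 ± 0.18 (n = 3) in *Sp3-/-*, with no overlap between *Sp3-/-* and the other genotypes. Levels of single libraries are log2 CPM, counts scaled to a common library size, with a prior count of 2. Library titles end in no suffix, 2 or 3, without explanation. All 3 *Sp3-/-* libraries lack a suffix, as do WT replicate 1 and *Sp3+/-* replicate 4. Genotype and suffix are thus nearly confounded, and the comparisons of *Sp3-/-* cells are given also with the suffix as a covariate. Collagen *Col1a1*, a defining stromal marker, ranged from 4825 to 8919 CPM in WT and *Sp3+/-* libraries and was at 6584, 4063 and 1571 CPM in *Sp3-/-* replicates 1 to 3, where the macrophage gene *Lyz2* was at 2067, 8040 and 7968 CPM. *Col1a1* was thus read in every library, while *Sp3-/-* replicates 2 and 3 also held much RNA of macrophage markers, so the stromal label does not describe all of their RNA. The summed level of 17 macrophage markers ranged from 708 to 3745 CPM in WT, from 426 to 3482 in *Sp3+/-* and from 3557 to 12750 in *Sp3-/-*, and the values of 3745 and 3482 belonged to WT replicate 1 and *Sp3+/-* replicate 4, which share the absence of a suffix and stand apart from the rest of their genotypes. In *Sp3-/-* replicate 3 this sum was 11870 CPM and that of 16 stromal markers 11790 CPM, neither scaled by gene length.

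In the genome (GRCm38.p6, the mm10 build of the alignments) the T-box genes form 2 pairs of neighbours. *Tbx2* (chr11:85832615-85841948) lies 44.4 kb from *Tbx4* (chr11:85886367-85916097). *Tbx3* (chr5:119670534-119684724) lies 111.8 kb from *Tbx5* (chr5:119796514-119885220). *Foxf1* is at chr8:121084386-121088154, *Foxf2* at chr13:31625816-31631406 and *Tcf21* at chr10:22817263-22820143. *Osr1* and *Meox2* share a chromosome, at chr12:9574442-9581500 and chr12:37108540-37179534, and *Hlx* is at chr1:184727143-184732493.

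Because Sp3 recognises GC boxes, the letters GGGCGG were searched on both strands in the 250 bases before the start of each gene in the RefSeq promoter table (GRCm38.p6), which holds *Tbx4*, *Foxf2*, *Tcf21*, *Meox2* and *Hlx* and not *Tbx2*, *Tbx3*, *Tbx5*, *Foxf1* or *Osr1*. A box was found in 3 of these 5 windows, 2 boxes in *Foxf2* and 1 each in *Tbx4* and *Meox2*. Of all 32851 windows 32.7% held a box, and of the 13441 windows of genes tested 56.3% did. The *Tbx4* window lies inside the gene interval given above and is not printed. The farthest 100 bases of 3 windows, from 250 to 151 bases before the start, are printed 5′ to 3′ on the gene strand. Whether transcripts of these genes reach into the printed stretches was not tested. The printed stretches contrast *Foxf2*, which holds both of its boxes there, with *Tcf21* and *Hlx*, which hold none. The contrast is not one of gene families. *Meox2*, a homeobox gene like *Hlx*, holds its box in the same stretch of its own window, which is not printed. Capitals mark the boxes.
Foxf2, chr13:31625566-31625665, plus strand: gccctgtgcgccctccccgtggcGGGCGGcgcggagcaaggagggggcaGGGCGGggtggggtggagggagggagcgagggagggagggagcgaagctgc
Tcf21, chr10:22820294-22820393, minus strand: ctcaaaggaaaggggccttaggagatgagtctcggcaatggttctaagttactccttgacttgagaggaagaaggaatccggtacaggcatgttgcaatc
Hlx, chr1:184732644-184732743, minus strand: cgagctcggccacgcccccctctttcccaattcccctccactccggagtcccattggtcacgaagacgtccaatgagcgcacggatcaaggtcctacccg
GC content was 79.0% in the *Foxf2* stretch, 63.0% in that of *Hlx* and 48.0% in that of *Tcf21*. Over the full 250 bases it was 71.6% for *Foxf2*, 41.6% for *Hlx* and 52.4% for *Tcf21*, so *Hlx* and *Tcf21* changed order. A match is a description of letters and not a binding site, and none of the 3 factors that passed the test in *Sp3-/-* cells against WT, *Osr1*, *Foxf1* and *Tbx5*, has a window in the table.

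Levels were compared between genes only per kilobase. In WT cells *Osr1*, *Foxf1* and *Tbx4* led, at 22.1 ± 8.36, 18.3 ± 5.25 and 15.2 ± 3.89 CPM per kb of canonical transcript (SD, n = 4). The ranges of these 3 over the libraries overlapped. *Tbx2* (11.2 ± 3.68), *Tbx5* (9.67 ± 2.73) and *Tbx3* (9.35 ± 2.68) followed, with ranges that overlapped each other. All genes were read in the same libraries, so such overlap does not say whether their order varied within a library. Below them came *Foxf2* at 4.31 ± 1.70, *Tcf21* at 3.74 ± 2.65 and *Hlx* at 1.96 ± 0.34, and the range of *Tcf21*, 1.20 to 7.11, took in those of *Foxf2* (2.78 to 6.42) and *Hlx* (1.74 to 2.46) and reached into that of *Tbx3* (5.67 to 11.6). *Meox2* was close to nil, at 0.025 ± 0.009 CPM per kb. The place of *Osr1* depends on the length used, since per kb of all annotated exons it was at 5.48 ± 2.08, the sixth value, with *Foxf1* first.

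In *Sp3-/-* cells the order was another one. *Tbx4* came first at 8.26 ± 3.95 CPM per kb (SD, n = 3), and *Tcf21*, the eighth in WT, stood second at 6.53 ± 3.17. The ranges of *Foxf1* (6.11 ± 3.94), *Osr1* (5.97 ± 1.77) and *Tbx2* (5.12 ± 2.59) over the libraries overlapped those of both. Per kb of all exons *Foxf1* was second and *Tcf21* came next, at 3.94 ± 1.91. In *Sp3+/-* cells the order per kb of canonical transcript was that of WT for each of the 10 genes.

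**Figure D1:**
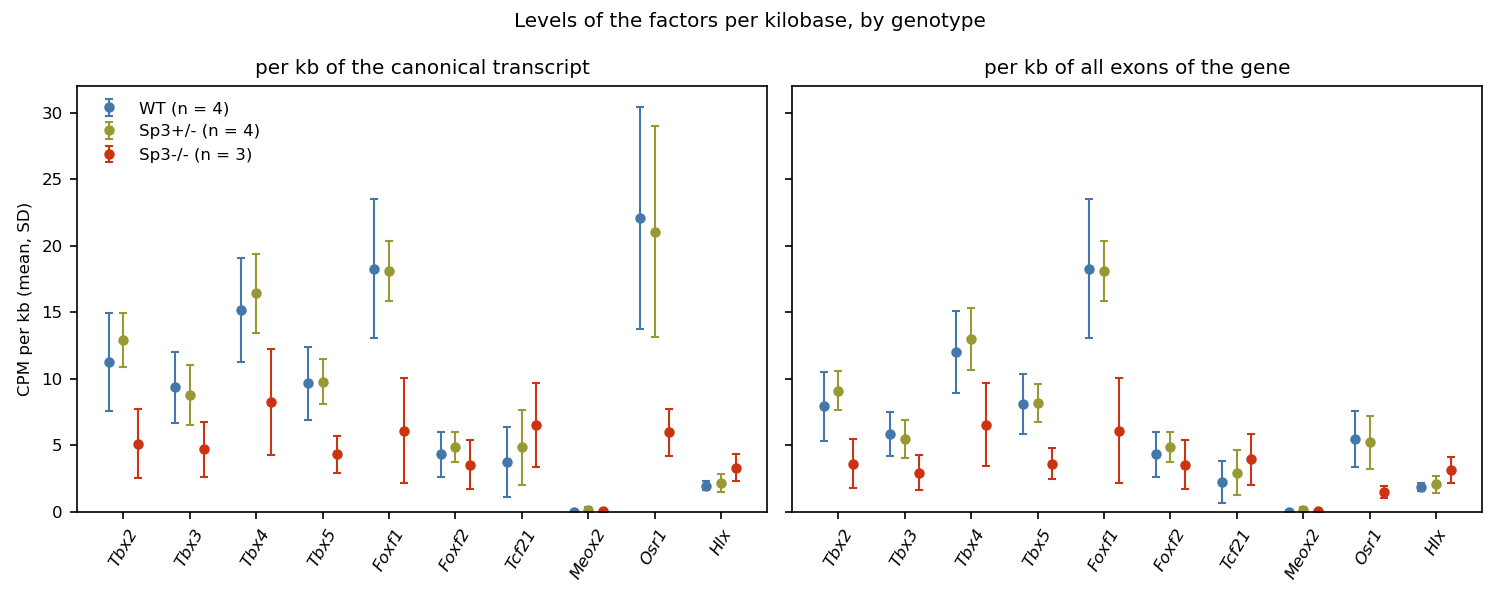
Mean level of each factor in CPM per kilobase (linear axis; bars, SD) for the 3 genotypes, per kb of the canonical transcript (left) and of all annotated exons (right). The *Sp3-/-* means of *Osr1* and *Foxf1* (5.97 and 6.11 on the left) sit under the WT means of 22.1 and 18.3, and *Osr1* changes place between the panels.

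The main comparison asks which of these factors differ in cells without Sp3. In *Sp3-/-* cells *Osr1*, *Foxf1* and *Tbx5* were lower than in WT, by 3.64-, 3.05- and 2.25-fold. No factor passed as higher, and *Tbx2*, *Tbx3* and *Tbx4* had lower fitted values that missed the threshold. *Foxf2* differed by less than its error, while *Tcf21* and *Hlx* had positive differences that did not pass. Of the 9 factors tested 3 were thus called (adjusted p below 0.05, edgeR quasi-likelihood test), all lower, beside a background of 18.5% of the 14025 genes tested, 9.77% called lower and 8.76% called higher. The median difference of the 9 factors was -1.0 on the log2 scale against -0.0032 over all genes. *Meox2* did not reach 1 CPM in any of these 7 libraries and was not tested. In such bulk samples fewer cells of a type and less RNA per cell cannot be told apart.

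*Osr1*, which is expressed in early foregut and lung mesenchyme, held 4.34, 5.73, 5.87 and 5.58 log2 CPM in WT replicates 1 to 4. In *Sp3+/-* replicates 1 to 4 it held 5.90, 5.50, 5.49 and 4.39, and in *Sp3-/-* replicates 1 to 3 it held 3.95, 3.67 and 3.06. Every *Sp3-/-* library was thus below every WT library, and the lowest WT and *Sp3+/-* values belonged to the libraries without a suffix. The fitted difference of *Sp3-/-* against WT was -1.86 (SE 0.39, adjusted p = 0.0232 by edgeR). With the suffix as a covariate it was -0.81 (SE 0.23, adjusted p = 0.0578) and no longer called. Among libraries that share the first label number 697, whose meaning is not given, *Sp3-/-* minus WT was -2.35 (n = 2 and 2), among those of 685 it was -1.78 (n = 1 and 1), and against the lone WT library without a suffix it was -0.78 (n = 3 and 1).

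*Foxf1*, a forkhead factor needed for lung vessels and smooth muscle, stood at 4.78, 5.54, 5.58 and 5.87 log2 CPM in the WT replicates. The *Sp3+/-* replicates held 5.49, 5.61, 5.59 and 5.20, and the *Sp3-/-* replicates 2.81, 3.64 and 4.69. WT and *Sp3-/-* did not overlap, but *Sp3-/-* replicate 3 (4.69) lay close to WT replicate 1 (4.78). The difference was -1.61 (SE 0.46, adjusted p = 0.0497, edgeR), at the edge of the threshold. With the suffix it was -1.11 (SE 0.46, adjusted p = 0.153). Within first label number 685 it was -2.73 (n = 1 and 1) and within 697 it was -1.56 (n = 2 and 2), and against the WT library without a suffix it was -1.07 (n = 3 and 1).

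*Tbx5*, which with *Tbx4* promotes *Fgf10* expression and branching, was at 4.53, 5.36, 5.61 and 5.32 log2 CPM in WT. It was at 5.50, 5.32, 5.32 and 4.88 in *Sp3+/-* and at 3.70, 3.90 and 4.54 in *Sp3-/-* replicates 1 to 3. *Sp3-/-* replicate 3 was level with WT replicate 1, so the groups overlapped. The difference of *Sp3-/-* against WT was -1.17 (SE 0.30, adjusted p = 0.0380, edgeR) and with the suffix -0.64 (SE 0.25, adjusted p = 0.140). Within first label numbers 685 and 697 it was -1.66 and -1.24, and against the WT library without a suffix -0.48.

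*Osr1* and *Foxf1* were the 2 factors whose *Sp3-/-* and WT libraries did not overlap, where 31.6% of all genes tested showed no overlap. The other 3 T-box factors had the same shape as *Tbx5*. *Tbx2* held 4.82, 5.33, 5.15 and 5.89 log2 CPM in WT, 5.73, 5.66, 5.58 and 5.18 in *Sp3+/-* and 3.43, 4.01 and 4.86 in *Sp3-/-*, a difference of -1.15 (SE 0.38, adjusted p = 0.0727, edgeR). *Tbx4* held 5.09, 5.75, 5.92 and 6.03 in WT, 6.0, 6.09, 5.76 and 5.49 in *Sp3+/-* and 4.16, 4.63 and 5.48 in *Sp3-/-*, a difference of -0.89 (SE 0.35, adjusted p = 0.110, edgeR).

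*Tbx3* held 4.87, 5.90, 5.83 and 5.55 log2 CPM in WT, 5.94, 5.49, 5.40 and 5.06 in *Sp3+/-* and 3.94, 4.40 and 5.18 in *Sp3-/-*, a difference of -1.0 (SE 0.35, adjusted p = 0.0820, edgeR). In all 3 of these genes *Sp3-/-* replicate 1 was the lowest of the 11 libraries and *Sp3-/-* replicate 3 lay above WT replicate 1. None of the 4 T-box factors passed with the suffix as a covariate, where their differences ranged from -0.73 for *Tbx2* to -0.39 for *Tbx4*.

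*Foxf2*, the relative of *Foxf1* in gut and lung mesenchyme, held 4.12, 3.29, 3.45 and 4.50 log2 CPM in WT, 3.54, 4.19, 4.38 and 4.18 in *Sp3+/-* and 2.62, 3.61 and 4.27 in *Sp3-/-*. The genotypes overlapped. Its fitted difference of -0.29 (SE 0.44, adjusted p = 0.656, edgeR) was smaller than its own error, and with the suffix it was -0.39 (SE 0.50, adjusted p = 0.641). Per kb *Foxf1* was above *Foxf2* in every library, for instance at 5.03 against 3.47 CPM per kb in *Sp3-/-* replicate 2.

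*Tcf21*, a gene of stromal progenitors and lipofibroblasts, had a spread within genotypes as wide as the difference between them. It held 1.02, 2.91, 3.56 and 1.82 log2 CPM in WT, 3.10, 3.79, 2.84 and 1.38 in *Sp3+/-* and 3.95, 3.56 and 2.38 in *Sp3-/-*. The highest library was *Sp3-/-* replicate 1, the one with the lowest T-box levels, and the lowest were WT replicate 1 and *Sp3+/-* replicate 4, which have no suffix. The difference was 0.83 (SE 0.62, adjusted p = 0.364, edgeR) in the 7 libraries, and 2.51 (SE 0.66, adjusted p = 0.0484) with the suffix as a covariate, where *Tcf21* was the single factor called. That fit called 9.41% of 14130 genes. With a library left out of that fit it stayed between 2.18 and 2.82 but passed in 4 of 11 fits. Among these 4 was the fit without *Sp3+/-* replicate 1. That library alone has suffix 2, so the covariate fits it by itself and leaving it out tests little. The call was lost without WT replicate 1 or 2, *Sp3+/-* replicate 2, 3 or 4, or *Sp3-/-* replicate 1 or 2, with an adjusted p of up to 0.285.

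*Hlx*, a homeobox gene of gut and liver mesenchyme, was at 2.96, 2.55, 2.48 and 2.46 log2 CPM in WT, at 2.28, 2.59, 2.68 and 3.30 in *Sp3+/-* and at 2.78, 3.69 and 3.52 in *Sp3-/-*. The libraries without a suffix gave the highest WT value and the highest *Sp3+/-* value. The difference was 0.76 (SE 0.26, adjusted p = 0.0736, edgeR), and with the suffix 0.35 (SE 0.27, adjusted p = 0.422).

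*Meox2*, known from somites and limb muscle, was barely read. Its counts were 2, 1, 2 and 1 in WT, 0, 6, 51 and 2 in *Sp3+/-* and 1, 0 and 2 in *Sp3-/-*. The 51 reads came from *Sp3+/-* replicate 3 alone, and 3 reads are the floor used here for a count that can be told from 0.

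**Figure D2:**
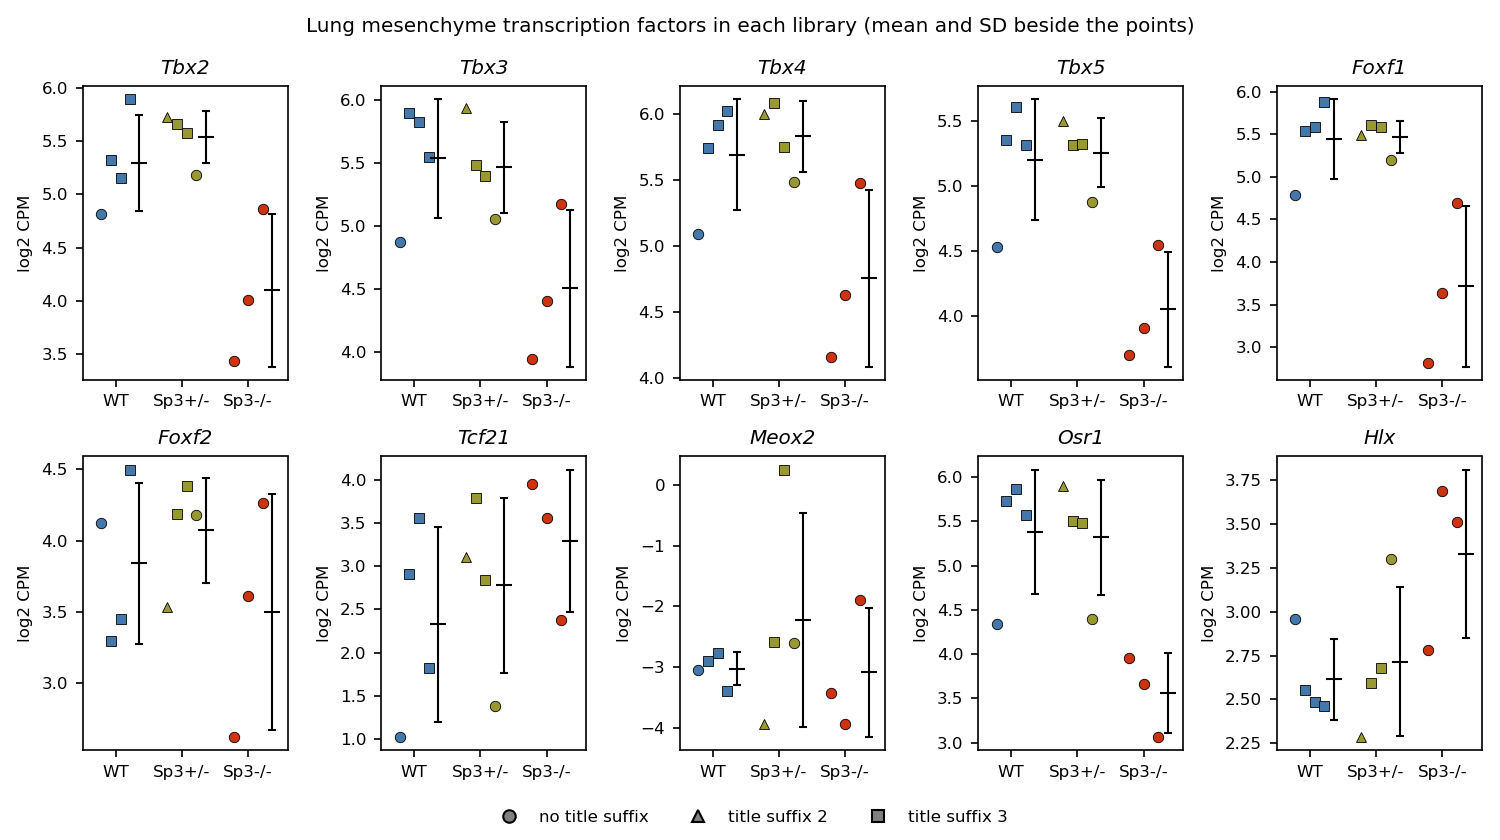
Level of each factor in log2 CPM (vertical axis, a range of its own per panel) in the 11 libraries by genotype, with the group mean and SD beside the points and the title suffix as the symbol. *Osr1* and *Foxf1* show no overlap between WT and *Sp3-/-*, the 4 T-box genes share an order within *Sp3-/-* with replicate 3 highest, and *Tcf21* spans 1.02 to 3.95 with overlap of all genotypes.

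How far single libraries decide these calls was measured by leaving each out. Without WT replicate 1, 7 of the 9 factors were called, 6 lower and *Hlx* higher, beside 29.9% of all genes tested. Without *Sp3-/-* replicate 3, 5 were called, namely the 4 T-box factors and *Foxf1*, and *Osr1* was not (adjusted p = 0.0585, edgeR), beside 10.1% of all genes. Without *Sp3-/-* replicate 1, *Osr1* (lower) and *Hlx* (higher) were called, and the difference of *Foxf2* was 0.0337, beside 16.0% of all genes called. No factor was called without WT replicate 2, WT replicate 3, WT replicate 4 or *Sp3-/-* replicate 2, fits in which 2.01% to 6.39% of all genes were called. The differences of *Osr1* kept their sign in these 7 fits, from -2.10 to -1.67, as did those of *Foxf1* (-2.20 to -1.26) and *Tbx5* (-1.44 to -1.01).

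Loss of 1 copy of *Sp3* gave no call, not even for *Sp3* itself. Its levels overlapped, at 5.94 to 6.75 log2 CPM in WT and 5.71 to 6.15 in *Sp3+/-*. In *Sp3+/-* against WT no gene of 14130 passed (0%) in edgeR, DESeq2 or limma-voom, while 246, 281 and 303 genes had an unadjusted p below 0.05. The factors apart from *Meox2* differed by -0.09 (*Tbx3*, SE 0.30) to 0.40 (*Tcf21*, SE 0.60), with *Foxf1* at -0.01 (SE 0.34), *Tbx5* at 0.02 (SE 0.24) and *Osr1* at -0.07 (SE 0.36), and adjusted p was 0.9999 for each. Differences of the size of these errors were not detectable with these libraries. No factor had groups without overlap, beside 1.41% of all genes. *Meox2* had a fitted difference of 2.66 (SE 1.20, adjusted p = 0.9999), which rests on the library with 51 reads.

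Set against *Sp3+/-* cells, *Sp3-/-* cells were lower in *Osr1*, *Foxf1*, *Tbx2*, *Tbx5* and *Tbx4*, by 3.47-, 3.05-, 2.56-, 2.29- and 2.01-fold. This fit shares its *Sp3-/-* libraries with the comparison against WT. The differences were -1.80 (SE 0.42, adjusted p = 0.0143) for *Osr1*, -1.61 (SE 0.39, adjusted p = 0.0169) for *Foxf1*, -1.36 (SE 0.34, adjusted p = 0.0180) for *Tbx2*, -1.20 (SE 0.27, adjusted p = 0.0133) for *Tbx5* and -1.01 (SE 0.31, adjusted p = 0.0385) for *Tbx4*, all by edgeR over 11 libraries. These 5 of the 10 factors were called beside 25.5% of all genes. In each of the 5 every *Sp3-/-* library was below every *Sp3+/-* library, although in *Tbx4* they stood at 5.48 and 5.49 where they came closest, and 34.2% of all genes showed no overlap.

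*Tbx3* (-0.92, adjusted p = 0.0628), *Foxf2* (-0.49, adjusted p = 0.388), *Tcf21* (0.44, adjusted p = 0.648), *Hlx* (0.62, adjusted p = 0.121) and *Meox2* (-3.19, adjusted p = 0.130) did not pass in edgeR. With the suffix as a covariate 0 of 10 factors passed, where 5.4% of all genes did. Without *Sp3-/-* replicate 2 none did either, beside 10.6% of all genes, against 4 to 7 factors and 13.4% to 30.1% of all genes without any other library.

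**Figure D3:**
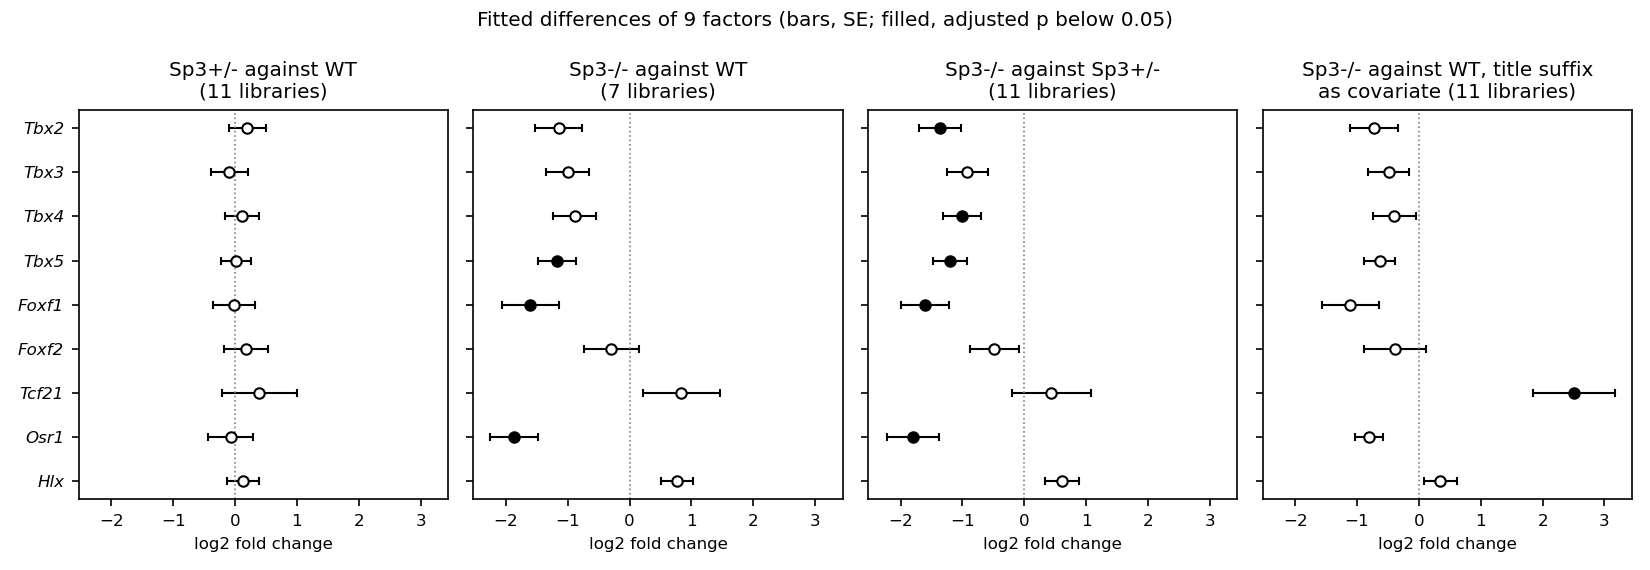
Fitted log2 fold change with its SE for the 9 factors other than *Meox2*, in *Sp3+/-* against WT, *Sp3-/-* against WT, *Sp3-/-* against *Sp3+/-*, and *Sp3-/-* against WT with the title suffix as a covariate. Filled points passed the test: none, 3, 5 and 1 in the 4 panels, and the last is *Tcf21* at 2.51.

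Several of the factors varied alike over the libraries, with the differences between genotypes and suffixes left in. This likeness was not particular to the factors, as some other genes, given below, came closer. Over 11 libraries, the centred log2 CPM of *Tbx3* and *Tbx5* differed by a root mean square of 0.171, that of *Tbx4* and *Tbx5* by 0.179 and that of *Tbx2* and *Tbx4* by 0.210, while each T-box gene alone had an SD of 0.62 to 0.76. The closest pair was linked and the next was not, as *Tbx4* and *Tbx5* are on different chromosomes. *Foxf1* was nearest to *Tbx2*, at 0.266, and its own relative *Foxf2* differed from it by 0.732. *Tcf21* stood apart, with differences of 1.12 or more from each other factor.

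Among 11195 other genes with a mean above 2 log2 CPM, the patterns most like each factor were named by the same measure, over the 11 libraries and with no test. They were *Adam23* (0.220) and *Pde8b* (0.223) for *Tbx2*, *Sgip1* (0.161) and *Glis3* (0.174) for *Tbx3*, and *Cd24a* (0.185) and *Dusp10* (0.230) for *Tbx4*. For *Tbx5* they were *Kif7* (0.131), a regulator of hedgehog signalling in the primary cilium, and *Glis3* (0.131). *Rap1gap2* (0.204) and *Adam23* (0.235) were nearest to *Foxf1*, and the homeobox genes *Hoxb7* (0.218) and *Hoxb9* (0.225) to *Foxf2*. *Slc27a3* (0.159) and *Gpr126* (0.170) were nearest to *Osr1*, *Eea1* (0.122) and *Cblb* (0.137) to *Hlx*, and *Cybrd1* (0.398) and *C430049B03Rik* (0.402) to *Tcf21*. For *Meox2*, whose counts are near 0, the nearest genes *Csgalnact1* (0.823) and *Nap1l2* (0.874) were remote. The median gene differed from a factor by 0.499 to 1.14.

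The genes beside *Foxf1* and *Foxf2* were followed because the forkhead genes lie in 2 clusters. *Fendrr*, a long noncoding RNA 1.3 kb from *Foxf1* that is needed for heart and body wall development, was lower in *Sp3-/-* than in WT, at 0.56, 2.29, 2.54 and 2.37 log2 CPM in WT and -1.14, -0.65 and 0.48 in *Sp3-/-* (difference -2.62, adjusted p = 0.0327, edgeR). *Mthfsd*, 3.5 kb on the other side of *Foxf1*, held 4.32 to 4.86 in WT and 4.25 to 4.64 in *Sp3-/-*, a difference of -0.20 (adjusted p = 0.394, edgeR). The forkhead genes beyond it, *Foxc2* at 28.0 kb and *Foxl1* at 39.5 kb, were lower, by -2.09 (adjusted p = 0.0138) and -1.84 (adjusted p = 0.0266) in edgeR, with no overlap of WT and *Sp3-/-* libraries.

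In the chromosome 13 cluster *Foxc1*, 175.2 kb from *Foxf2*, was lower, at 3.05 to 4.03 log2 CPM in WT and 1.68 to 2.16 in *Sp3-/-* (difference -1.75, adjusted p = 0.0153, edgeR), where *Foxf2* itself was not. *Foxq1* on its other side, 64.8 kb away, had a positive difference of 1.21 (adjusted p = 0.243). With the suffix as a covariate *Foxc2* (-1.70, adjusted p = 0.0200), *Foxl1* (-1.84, adjusted p = 0.0399) and *Foxc1* (-1.24, adjusted p = 0.0301) were still called and *Fendrr* (-1.31, adjusted p = 0.0975) was not. *Foxq1* was named, and the reach of both clusters set, after their values were seen. The strand setting of the counts is not stated, but none of these gene intervals overlaps *Foxf1* or *Foxf2*.

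**Figure D4:**
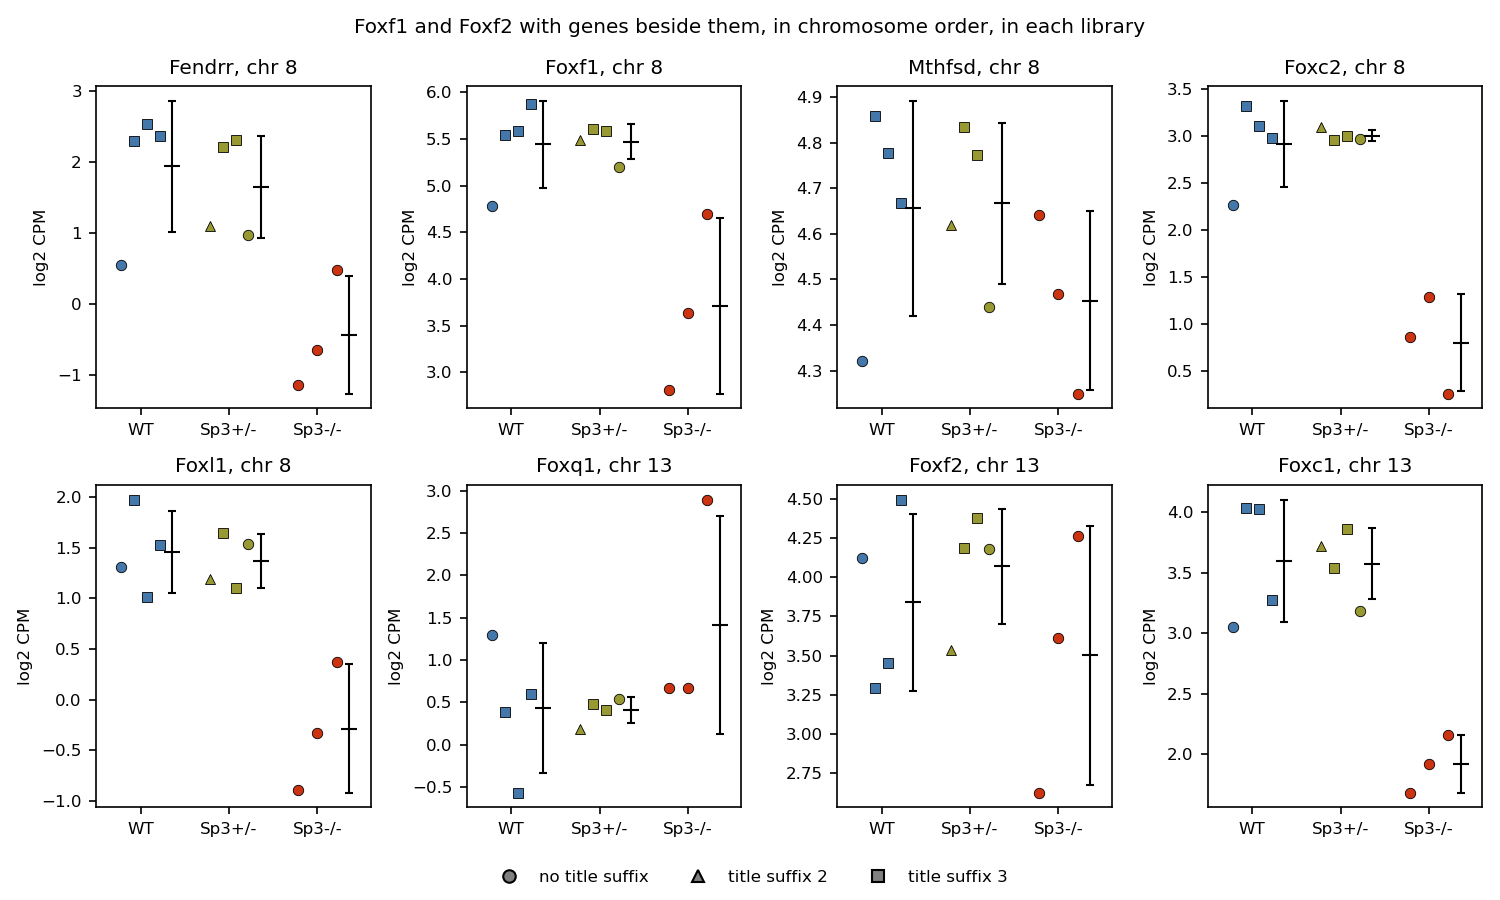
Levels in log2 CPM (vertical axes differ) in the 11 libraries of *Foxf1*, *Foxf2* and the genes beside them on chromosomes 8 and 13, by genotype, with mean and SD beside the points and the title suffix as the symbol. *Foxc1*, *Foxc2* and *Foxl1* show no overlap of WT and *Sp3-/-*, whereas *Mthfsd* (difference -0.20), which lies between *Foxf1* and *Foxc2*, overlaps.

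Outside the forkhead clusters, and apart from *Tbx5* as the neighbour of *Tbx3*, the nearest tested gene on either side of a factor passed in 1 case, *Rdh14*, 809.2 kb from *Osr1*, at 0.50 (adjusted p = 0.0469). The transcript *2610027K06Rik*, 0.2 kb from *Tbx2*, had a difference of -0.80 (adjusted p = 0.265), and without a known strand setting reads at its edge cannot be assigned to it with certainty. The other neighbours outside the T-box pairs, *AW549542*, *Brip1*, *Rbm19*, *1700018A04Rik*, *Tbpl1*, *Eya4*, *Ispd*, *Agmo*, *Ttc32*, *Dusp10* and *Marc2*, did not pass, with differences from -0.80 to 1.91.

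Relatives of the factors were read from family lists. For these lists and the later ones the background in *Sp3-/-* against WT was 18.5% of all genes called, 9.77% lower and 8.76% higher. With the suffix it was 9.41%. Of 23 forkhead relatives tested, 7 were lower in *Sp3-/-* than in WT and none higher, with a median of -0.31. The largest falls were those of *Foxp2* (-2.24, adjusted p = 0.0153), a repressor of the distal lung, *Foxc2* and *Foxl1*, and 5 of the 7 passed with the suffix, all but *Foxp1* and *Foxm1*, named after their values were seen. Of 6 other T-box genes tested none passed (edgeR), and their median of 0.23 turned to -0.46 with the suffix, over 7 genes.

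Of 10 homeobox, basic helix-loop-helix and odd-skipped relatives, 2 were lower in edgeR, beside 9.77% of all genes. They were *Osr2* (-4.39, adjusted p = 0.0335), the paralog of *Osr1*, and the stomach factor *Barx1* (-3.55, adjusted p = 0.0221). *Osr2* held 0.32, 2.47, 2.97 and -0.16 log2 CPM in WT and -1.67, -2.05 and -3.94 in *Sp3-/-*, and -3.12 in *Sp3+/-* replicate 4, which also lacks a suffix. With the suffix its difference was -2.23 (adjusted p = 0.225) and that of *Barx1* -3.48 (adjusted p = 0.0497).

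Hedgehog signalling, which induces *Foxf1*, was measured in 9 genes, of which 1 passed. *Boc*, a coreceptor, was lower (difference -0.81, adjusted p = 0.0226, edgeR). The direct readouts of the pathway *Gli1* (-0.55, adjusted p = 0.333) and *Ptch1* (-0.27, adjusted p = 0.281) did not pass, and 8 of the 9 fitted values were below 0 (median -0.31). With the suffix *Boc* did not pass (-0.57, adjusted p = 0.0585), *Gas1* passed in the positive direction (2.83, adjusted p = 0.0329), and the list median was -0.01.

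Among 25 mesenchymal ligands, receptors and partners of the factors, 6 were lower and 3 higher, with a median of -0.60. *Rspo2*, a Wnt amplifier needed for lung branching, was at 3.97, 5.13, 5.65 and 4.10 log2 CPM in WT and at 0.79, 0.99 and -0.18 in *Sp3-/-*. Its groups were far apart (difference -4.22, adjusted p = 0.00887, edgeR, and -2.94, adjusted p = 0.0144, with the suffix). *Fgf10*, the branching ligand that *Tbx4* and *Tbx5* are known to promote, was at 5.26, 5.45, 5.27 and 2.81 in WT and at 2.26, 2.13 and 2.95 in *Sp3-/-*.

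WT replicate 4, with high T-box and *Foxf1* levels, was within the *Sp3-/-* range of *Fgf10*. The difference of *Fgf10* was -2.54 (adjusted p = 0.0329, edgeR) and -2.43 (adjusted p = 0.0614) with the suffix. *Crabp1*, a retinoic acid binding protein, was also lower (-3.96, adjusted p = 0.0215). With the suffix 4 of the 25 passed, all lower, and the median was 0.15.

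Calls among genes that TBX2 and TBX3 are known to repress went both ways, beside 18.5% of all genes called. Of 13 tested, *Cdh1* (4.81, adjusted p = 0.0202), which encodes E-cadherin, and *Il33* (2.64, adjusted p = 0.0132) were higher and *Frzb* (-2.17, adjusted p = 0.0153), a Wnt antagonist, was lower. *Cdh1* was listed between -3.94 and -1.22 log2 CPM in WT and between 1.34 and 2.57 in *Sp3-/-*. The cell cycle inhibitor *Cdkn1a* (0.04, adjusted p = 0.873) did not pass, nor did the other inhibitors listed, and the list median was 0.01. The inhibitors were not all flat, as 2 named after their values were seen show. *Cdkn2a* held 7.90, 6.15, 6.025 and 6.14 log2 CPM in WT and 7.52, 7.12 and 7.40 in *Sp3-/-*. *Cdkn1c* lay the other way, at 4.12 to 5.32 in WT and 3.70 to 4.24 in *Sp3-/-*. With the suffix 2 were again higher, *Cdh1* and *Il33*, and 1 was lower, *Shisa3* (-2.48, adjusted p = 0.0309), named after its values were seen, while *Frzb* did not pass (-1.09, adjusted p = 0.0689). *Cdh1* is also an epithelial marker, and *Epcam*, another, was at 0.596 to 1.20 CPM in *Sp3-/-* and at 0.281 CPM or less in WT.

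Cells other than stroma were also read in these cultures. Of 16 macrophage markers tested, 8 passed as higher in *Sp3-/-* than in WT (median 2.39) and none with the suffix (median 1.12). WT replicate 1 and *Sp3+/-* replicate 4, with the highest macrophage sums of their genotypes, were also the lowest of them in *Tbx5*, *Foxf1* and *Osr1*. Within *Sp3-/-*, replicate 1 had the lowest macrophage sum (3557 CPM), the lowest T-box and *Foxf1* levels and the highest *Osr1* level, so that *Osr1* was again highest where the macrophage sum was lowest and the T-box genes and *Foxf1* were not.

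The sum of the 16 stromal markers ranged from 26880 to 38540 CPM in WT, from 26840 to 38090 in *Sp3+/-* and from 11790 to 30580 in *Sp3-/-*, with the highest *Sp3-/-* value again in replicate 1 and the lowest in replicate 3. Against WT, 4 of these markers fell and 2 rose in *Sp3-/-* cells, with a median of -0.77. The 10 smooth muscle markers summed to 11970 to 25830 CPM in WT and 4245 to 5216 in *Sp3-/-*, and 7 were lower (median -2.06, and -1.85 with the suffix, where 7 passed as well).

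Of 11 mesothelial markers 5 were higher and 1 lower in *Sp3-/-* than in WT (median 1.63), with sums of 933 to 1990 CPM in WT, 1699 to 2966 in *Sp3+/-* and 2468 to 6756 in *Sp3-/-*. WT and *Sp3-/-* sums did not overlap, and the highest was that of *Sp3-/-* replicate 1, the library lowest in the T-box genes and *Foxf1*. With the suffix 1 passed as higher and 1 as lower (median 1.41). Of 8 epithelial markers tested 3 were higher (median 1.22), and with the suffix 1 of 9 (median 1.77), with the lung epithelial genes *Sftpc* and *Nkx2-1* at 0.139 CPM or less in the *Sp3-/-* libraries. Of 12 endothelial markers 2 were higher and 1 lower, beside 18.5% of all genes called. *Pecam1* and *Cdh5* were at 7.70 and 8.94 CPM or less in all libraries. Of 10 erythroid markers 1 was tested, *Alas2*, which was higher in *Sp3-/-* (1.66, adjusted p = 0.0303, edgeR) and did not pass with the suffix (1.35, adjusted p = 0.263). *Hba-a1* and its near-identical copy *Hba-a2* were at 0 throughout. Multimapping reads were not counted, so these values of 0 do not show that globin RNA was absent.

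The 12 G2 and mitosis genes summed to 181 to 708 CPM in WT, 232 to 515 in *Sp3+/-* and 111 to 271 in *Sp3-/-*. None was called in edgeR, and all 12 fitted differences against WT were below 0 (median -1.23, and -0.07 with the suffix). The part of cell makeup and of cycling in the levels of the 10 factors was not tested.

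**Figure D5:**
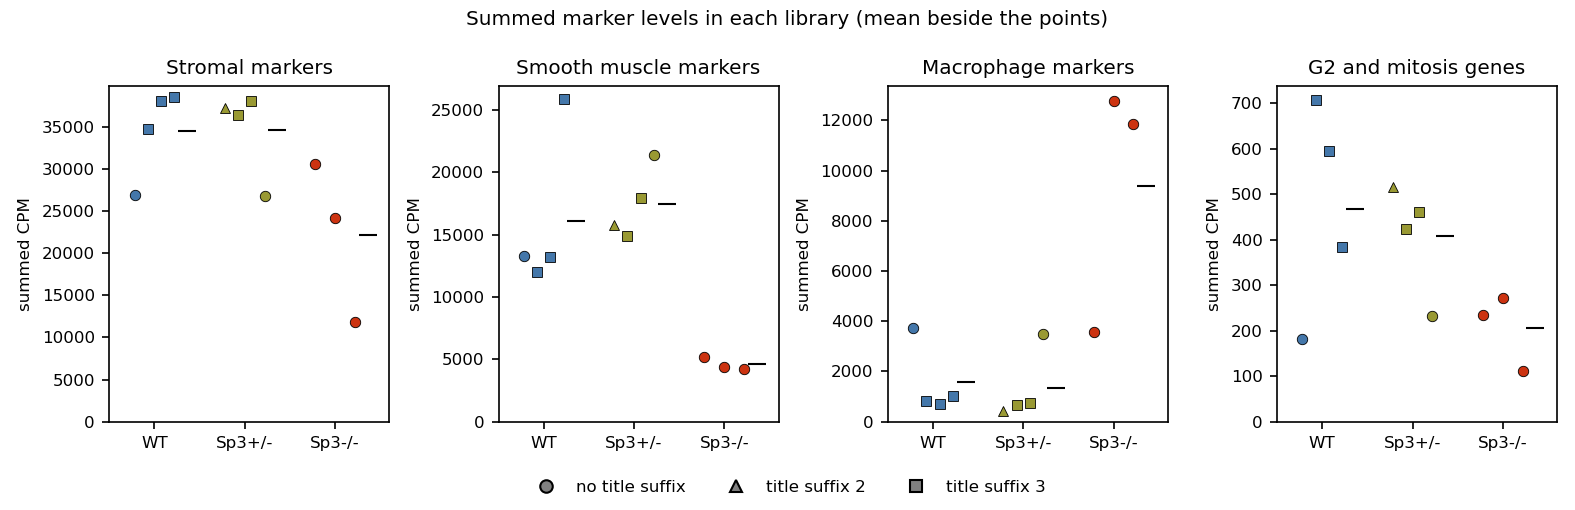
Summed CPM (linear axes from 0) of stromal, smooth muscle and macrophage markers and of G2 and mitosis genes in each library by genotype, with the mean beside the points and the title suffix as the symbol. Macrophage sums reach 12750 in *Sp3-/-* against at most 3745 in WT, and smooth muscle sums in *Sp3-/-* (4245 to 5216) lie below all others.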

How the data were processed

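RNA-seq counts of 11 libraries were analysed. Per the labels and the methods of the study, the authors prepared TruSeq libraries from 10 ng of RNA, sequenced 50 bp single end reads, checked them with FastQC 0.10.1, aligned them to mm10 with STAR 2.4.5a and counted reads per gene with htseq-count. The deposited counts are whole numbers without normalization. The annotation version and strand setting are not given in the sources used here. The 5 tallies of reads outside genes (38.4% to 40.9% of each total) were left out. Multimapping reads are among these, so near-identical copies are undercounted.

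A fit kept each gene that exceeded 1 CPM in any of its libraries. Calls are from the robust quasi-likelihood test of edgeR 4.0.16 (R 4.3.3, TMM scaling), with Benjamini-Hochberg adjustment across the whole gene table and a threshold of 0.05. *Sp3-/-* against WT used 7 libraries and the other comparisons 11. The study describes limma-voom with consensus correlation, which was run as an alternative with limma 3.58.1, as was DESeq2 1.42.0. Each SE was derived from the fold change and its F statistic. The fit was tested on simulated counts. No pair of libraries of a genotype was alike within counting noise (lowest chi-square per degree of freedom 15.8). Python 3.11.15 was used for tables.

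The factors and lists were chosen with earlier results of these data known. Text names the 10 factors, up to 3 called genes of a list with the largest changes, the genes nearest in pattern, the nearest tested neighbours, *Sp3*, and marker genes beside them, and says where a gene was named after its values were seen. Other alternatives were the scaling, the low-count filter, the libraries in the fit, a block, the suffix as a covariate and each library left out. Those that left libraries out of the suffix fit were chosen after seeing the data. Neighbours and coordinates are from RefSeq on GRCm38.p6. Lengths are from GENCODE vM39 and were used as lengths only. Counting precision was not the limit for any factor but *Meox2*, and replicate spread set the errors.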

Additional observations from a re-analysis of the deposited data

How the results depend on the processing

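Genes called in *Sp3-/-* against WT numbered 2599, and 4297 with DESeq2, 4031 with the first label number as a block, 3977 in a fit of all 11 libraries, 1329 with the title suffix, 163 with the suffix of the file names (which differ for *Sp3+/-* replicate 4), 0 among libraries without a suffix (1337 at an unadjusted p below 0.05; 3 *Sp3-/-* against 1 WT library, which is assumed to vary like the others, so this 0 says little), and 282 to 4179 with a library left out. Factors called numbered 3 beside 18.5% of all genes tested. They numbered 6 with DESeq2 (30.6% of all genes), 5 with limma-voom (17.8%) and 6 with a consensus correlation of 0.105 (21.6%). They numbered 5 in all 11 libraries (28.1%), 7 with the block (28.7%), 1 with the title suffix (9.41%) and 0 with the file-name suffix (1.15%). With a library left out they numbered 0 to 7, beside 2.01% to 29.9% of all genes. Against *Sp3+/-*, 3607 genes and 5 factors were called, and 763 and 0 with the title suffix, 0 and 0 with the file-name suffix (1168 genes at an unadjusted p below 0.05), and 1490 to 4245 and 0 to 7 with a library left out. The title-suffix fit itself called 0 to 2368 genes and 0 to 7 factors with a library left out, a check chosen after seeing the data, with 0 of both without WT replicate 1 (2259 genes at an unadjusted p below 0.05) and 7 factors without *Sp3-/-* replicate 3. *Sp3+/-* against WT gave 0 genes and 0 factors under every alternative. Whether the first numbers pair the libraries could not be settled. Between genotypes, deviations of libraries that share a first number correlated between -0.617 and 0.344 (median 0.0995). Those of other pairs correlated between -0.524 and 0.708 (median -0.044). The block raised the factors called against WT from 3 to 7. It left 5 called against *Sp3+/-*, beside 20.9% of all genes, and 0 in *Sp3+/-* against WT.

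Upper quartile scaling moved the split of calls from 1229 higher and 1370 lower to 983 and 1671 in *Sp3-/-* against WT, and from 1838 and 1769 to 1436 and 2171 against *Sp3+/-*. Signs turned for values near 0. In *Sp3+/-* against WT, *Tbx5* was -0.11 with the file-name suffix, and *Foxf1* was 0.0505 with limma-voom, 0.0474 with consensus correlation, 0.17 with the block and 0.0692 with the title suffix. *Tbx3* against *Sp3+/-* was 0.0312 with the file-name suffix. With a library left out, *Foxf2* in *Sp3-/-* against WT ranged from -0.72 to 0.0337. In *Sp3+/-* against WT, *Tbx3* ranged from -0.26 to 0.0342, *Tbx4* from -0.0401 to 0.23, *Tbx5* from -0.15 to 0.16, *Foxf1* from -0.18 to 0.14, *Tcf21* from -0.0137 to 0.93, *Osr1* from -0.30 to 0.16 and *Hlx* from -0.10 to 0.28. In the title-suffix fit *Meox2* ranged from -0.64 to 1.99. The cause of these shifts was not tested. In 21 fits of *Sp3-/-* against WT, *Osr1*, *Foxf1*, *Tbx2*, *Tbx3*, *Tbx4* and *Tbx5* were below 0 in all 21. These fits reuse the same libraries, so their shared sign is not independent evidence. With 3 *Sp3-/-* libraries that all lack a suffix, genotype and suffix cannot be fully told apart.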
